A study of Rattus norvegicus with 36 samples.

Results

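Granulosa cells line the ovarian follicle and make estradiol and progesterone. Here the question was how much of their transcript response to cAMP was left when they were cultured with 10 µM HPTE. This compound is what the body makes of the insecticide methoxychlor, by turning both of its methoxy groups into hydroxyl groups. The arrays were chosen by their labels: 3 arrays of cells given 10 µM HPTE with 1 mM cAMP, and 3 of cells given 10 µM HPTE without a stimulus (basal), which makes 6 of the 36 arrays. They were set against 3 arrays of cells given 1 mM cAMP and 3 basal arrays, all at 0 µM HPTE. The cells came by needle puncture from ovaries of immature female Sprague Dawley rats aged 21 to 27 days that had received no hormone. All groups, the basal ones at 0 µM included, were plated for 24 h with 5% serum and then kept for 48 h without serum but with androstenedione, the substrate of aromatase. Its concentration is 0.1 µM in the design text of the series, while the sample descriptions give it in M. The sources used here do not name the cAMP compound. Nor do they say if the 3 cultures behind a group had different animals as their source, so p-values measure only the spread between these samples, which may be technical. Since the cells were cultured and measured in bulk, fewer cells of a type and less RNA per cell cannot be told apart.

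In these cells FSH acts through a receptor that raises cAMP, which releases the catalytic subunits of protein kinase A. The kinase switches on the enzymes that turn cholesterol into steroid hormones, and it also makes the cells lose stress fibres and round up. cAMP added to the medium starts this chain behind the receptor. HPTE is known to bind estrogen receptors. Background knowledge also holds that cAMP signals are ended by phosphodiesterases, whose genes cAMP itself can switch on.

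Each probe set has 1 intensity per array, given below as its log2. A called difference is one with an adjusted p under 0.05 in a limma fit of all 36 arrays (Benjamini-Hochberg over 31042 probe sets), two-sided, and differences are log2 ± their standard error (SE). Array values run from number 1 to number 3, with n = 3 in each group. Arrays of the same number deviated together (r between 0.461 and 0.748 at 10 µM, and between 0.364 and 0.57 at 0 µM). A second fit, blocked on the number, is therefore given where it changes a call of a named gene, and for most counts that it moves by over 1.5 times.

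A library at 0 µM went against its label. The number 2 array labelled cAMP at 0 µM had 11.01 for Cyp19a1 (aromatase) and 10.04 for Lhcgr (the LH receptor), against 7.62 and 6.46 for Cyp19a1 and 5.66 and 5.80 for Lhcgr on its group's other arrays. The number 2 array labelled FSH at 0 µM had 7.48 for Cyp19a1, against 11.49 and 11.46 on the other FSH arrays. The 3 cAMP arrays at 10 µM lay together, at 7.69, 7.60 and 7.51 for Cyp19a1, so the doubt falls on the 0 µM response and on the change between doses, and both are also given without the 2 arrays. The number 3 arrays had a lower Gapdh 3′ to 5′ signal ratio in both groups at 10 µM. On the log2 scale it was 2.05, 1.61 and 0.927 in cAMP arrays, against 1.94, 1.95 and 0.893 in basal arrays. The log2 ratio of beta-actin was 3.56, 3.1 and 2.34 in cAMP arrays, against 3.44, 3.52 and 2.08 in basal arrays. Array medians lay between 65.8 and 73.7 in intensity over the series. Of 9 granulosa markers, none lay below the median level of all probe sets (6.11) on all 12 arrays, though Esr2 lay below each array's own median on all 6 arrays at 10 µM. Below 6.11 on all 12 arrays lay Des (1 of 6 smooth muscle markers), Cyp17a1 and Tcf21 (2 of 8 theca and stroma markers) and Msln (1 of 6 surface epithelium markers). So did Aif1, C1qb and Csf1r (3 of 9 leukocyte markers), Emcn, Tie1 and Vwf (3 of 6 endothelial markers) and Bmp15 and Zp1 (2 of 5 oocyte markers). The other measured markers of these cell types did not.

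Most of the cAMP response was present at 10 µM HPTE. There, 846 probe sets were higher with cAMP (2.73% of all tested) and 1072 were lower (3.45%), 6.18% in all. At 0 µM, 835 (2.69%) were higher and 1393 (4.49%) were lower, 7.18% in all. With the number as a block the totals became 3977 (12.8%) at 10 µM and 4709 (15.2%) at 0 µM, of which the higher ones made up 6.09% and 6.44% of all probe sets and the lower ones 6.72% and 8.73%. At an unadjusted p under 0.05, 6.77% were higher and 7.52% lower at 10 µM, against 7.35% and 8.46% at 0 µM. In a fit of only the groups compared, 2.75% were called lower at 10 µM and 2.02% at 0 µM. Without the doubted arrays the shares called were 6.84% at 10 µM and 7.31% at 0 µM. Of 359 probe sets called at least 2-fold higher at 0 µM (1.16% of all), 251 (69.9%) were called higher at 10 µM and 357 had the same sign there. Of 766 called at least 2-fold lower at 0 µM (2.47%), 532 (69.5%) were called lower at 10 µM and 759 had the same sign. Without the doubted arrays these became 261 of 341 and 566 of 856. The responses at 10 and 0 µM share no array. Counts of list members called, given below, are to be read beside the shares of all probe sets given here.

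Probe sets chosen at 0 µM are chosen for large values there, so the sizes were also read in probe sets chosen at 1 µM. The 523 called and raised at least 2-fold at 1 µM (1.68% of all) had a median response of 1.20, 1.40, 1.40 and 1.05 at 0, 1, 5 and 10 µM. The 794 lowered (2.56%) had −1.44, −1.52, −1.42 and −1.19. The response was smaller at 10 µM than at 0 µM in 334 (63.9%) of those raised and in 572 (72%) of those lowered. In the 3 pairs of arrays of the same number, the raised median was 1.16, 1.03 and 1.03 at 10 µM, against 1.44, 1.12 and 1.07 at 0 µM and 1.32, 1.42 and 1.55 at 5 µM. The lowered median was −1.23, −1.19 and −1.24 at 10 µM, against −1.34, −1.22 and −1.79 at 0 µM and −1.38, −1.36 and −1.59 at 5 µM. The pairs at 10 µM lay nearer to 0 than all pairs at 5 µM, while they overlapped the range at 0 µM. For the lowered median this overlap came from the number 2 pair at 0 µM, which holds a doubted array. Without the doubted arrays, 546 probe sets raised at 1 µM had medians of 1.16 at 0 µM and 1.04 at 10 µM. The 792 lowered had −1.55 and −1.19. The response was then smaller at 10 µM in 61% of those raised and 74.5% of those lowered. Over all probe sets the median response was −0.01 at 10 µM and 0.04 at 0 µM.

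**Figure D1:**
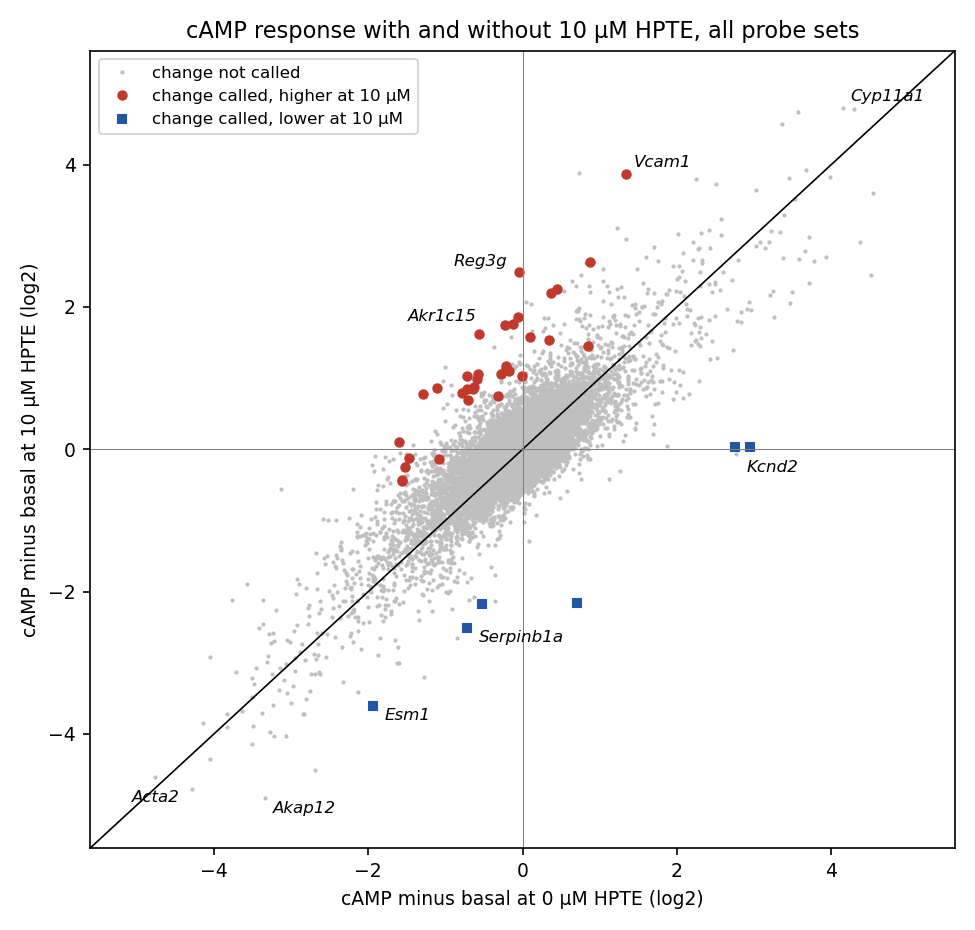
Each point is a probe set, with the log2 difference between cAMP and basal arrays at 10 µM HPTE on the vertical axis and at 0 µM on the horizontal axis, and the line marks equal responses. Most points with a large response at 0 µM have the same sign at 10 µM, and most of them have a smaller response there. The 34 probe sets whose response was called higher at 10 µM (circles) and the 6 called lower (squares) lie off the line.

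The change of the response between 10 and 0 µM was tested directly, as the difference of both differences. It was called for 40 probe sets (0.129%), 34 with a higher value at 10 µM (0.11%) and 6 with a lower one (0.0193%), while 2.05% were higher and 1.69% lower at an unadjusted p under 0.05. Of the 40, 17 were higher with cAMP at 10 µM and not called at 0 µM, 7 were lower with cAMP at 0 µM and not called at 10 µM, and 7 were lower at 0 µM and higher at 10 µM. Another 5 were called the same way at both doses, 2 were lower at 10 µM alone and 2 were higher at 0 µM alone. With the number as a block 177 were called (0.57%), without the doubted arrays 70 (0.226%), and with both settings 527 (1.7%), of which 409 had the higher value at 10 µM. Without the number 3 cAMP array at 10 µM the count was 24, and without the number 1 basal array at 0 µM it was 26.

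Cyp11a1, Hsd3b1, Hsd17b1 and Fdx1 of steroid synthesis rose with cAMP at 10 µM. Of 15 measured steroid enzymes and carriers, 4 were called higher with cAMP at 10 µM and none lower, against 7 higher and none lower at 0 µM, and 8 of 15 were higher and none lower at an unadjusted p under 0.05 at 10 µM. With the block 7 were higher at 10 µM and 8 at 0 µM. Cyp11a1, which cleaves the cholesterol side chain, had 12.01, 11.77 and 11.23 with cAMP at 10 µM, against 7.56, 7.06 and 6.02 in basal cells at 10 µM. It was the largest rise among the named genes at that dose (4.79 ± 0.79, limma adjusted p = 0.00012), against 4.15 ± 0.79 at 0 µM. Hsd3b1, which makes progesterone from pregnenolone, had 13.16, 13.18 and 13.15 with cAMP, against 10.67, 10.38 and 9.28 in basal cells at 10 µM. Its response was 3.05 ± 0.42 at 10 µM and 3.34 ± 0.42 at 0 µM, and the cAMP arrays did not overlap the basal arrays at either dose. Hsd17b1, which makes estradiol from estrone, rose by 3.82 ± 0.63 at 10 µM, against 3.46 ± 0.63 at 0 µM. Fdx1, the electron carrier of Cyp11a1, rose by 2.21 ± 0.63 at 10 µM, against 2.04 ± 0.63 at 0 µM.

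Cyp19a1 and Star were higher on every cAMP array at 10 µM but missed the threshold in the shared fit. Cyp19a1 had 7.69, 7.60 and 7.51 with cAMP, against 4.58, 4.84 and 5.00 in basal cells at 10 µM, with no overlap. The difference was 2.79 ± 0.95, with an adjusted p of 0.089 in the shared fit, 0.039 with the block, and 0.00012 in a fit of only the arrays of the groups compared. The shared fit takes its spread from all groups, and at 0 µM the cAMP arrays of this gene ranged over 7.62, 11.01 and 6.46. Star, which carries cholesterol to the inner mitochondrial membrane, had 12.60, 12.34 and 12 with cAMP, against 11.09, 10.55 and 10.37 in basal cells at 10 µM. Its difference was 1.65 ± 0.54 (limma adjusted p = 0.074, and 0.00021 with the block), against 2.29 ± 0.54 at 0 µM. In basal cells Star was already higher with 10 µM HPTE than without (2.49, adjusted p = 0.016), and with cAMP it was higher by 1.85 (adjusted p = 0.093). The change of the response was not called by limma for any of the 15 enzymes. At an unadjusted p under 0.05 it was higher for 1 and lower for none, and its 95% interval ran from −1.65 to 2.92 for Cyp11a1, from −1.51 to 0.94 for Hsd3b1 and from −2.21 to 0.93 for Star.

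**Figure D2:**
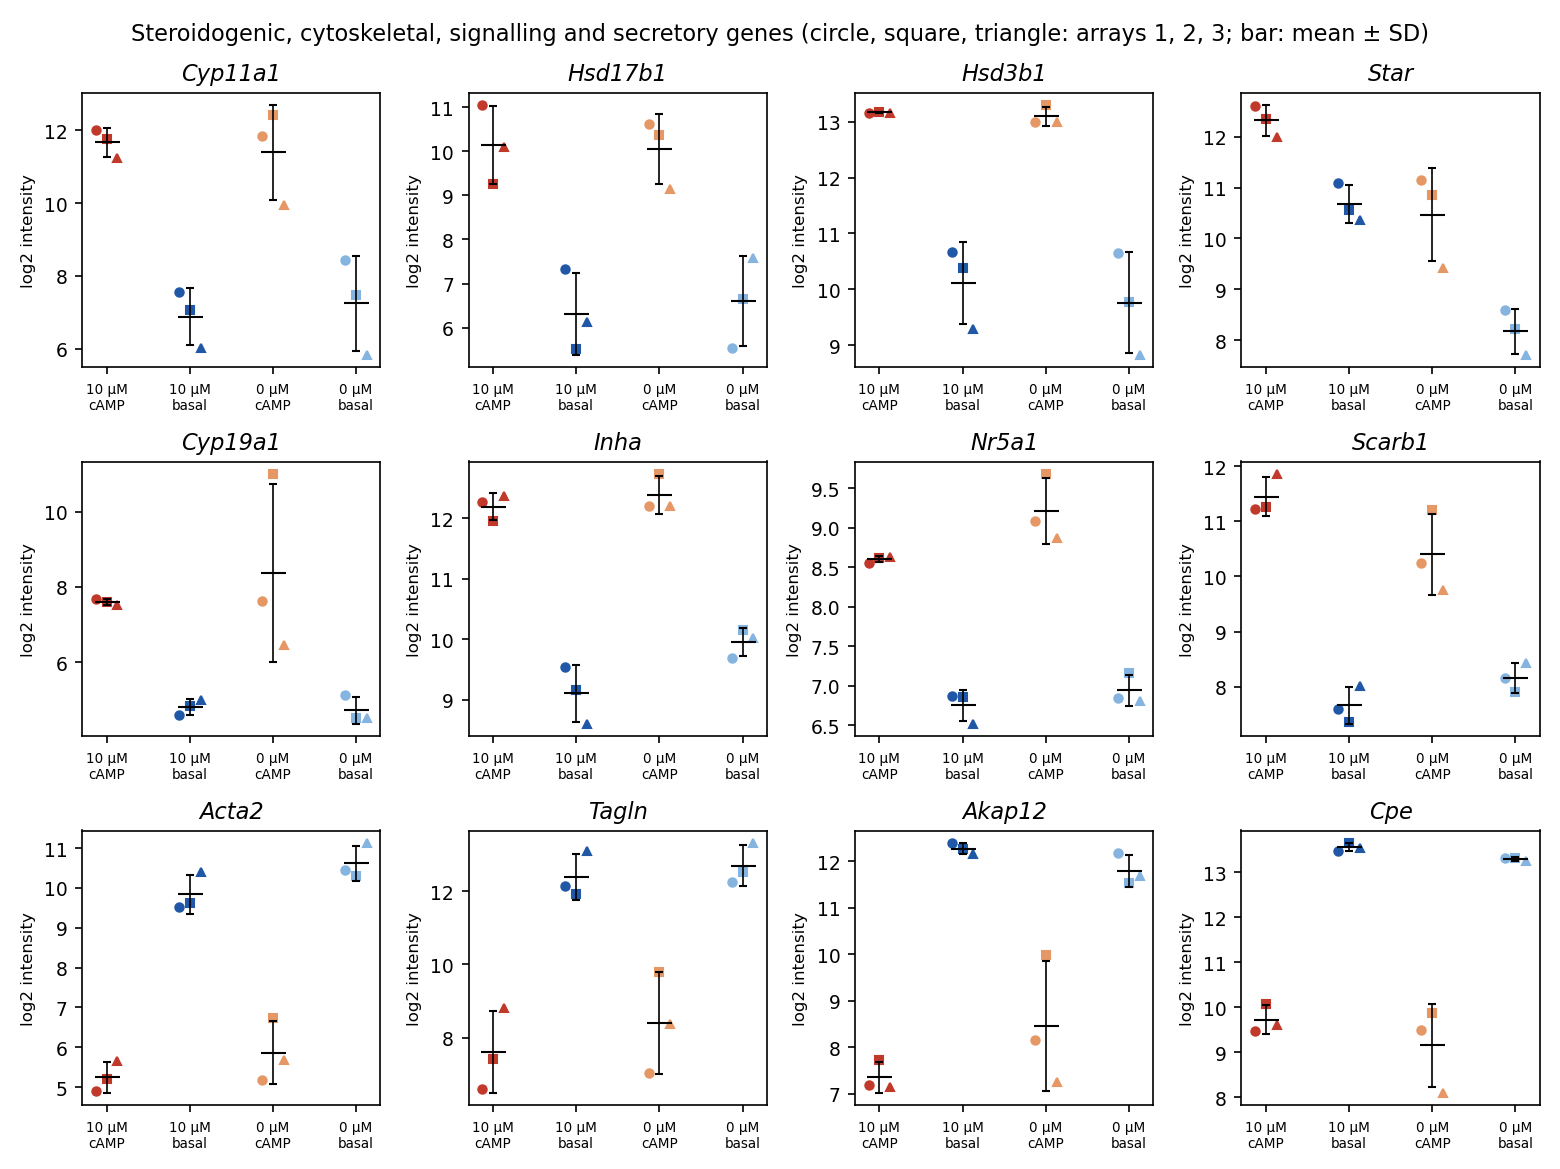
Each panel gives the log2 intensity of a gene on the 3 arrays of each of 4 groups, with points for arrays and bars for the mean ± SD. The cAMP arrays at 10 µM stand above the basal arrays at 10 µM in the upper 8 panels and below them in the 4 lowest panels (Acta2, Tagln, Akap12 and Cpe), and the wide spread of Cyp19a1 at 0 µM comes from the number 2 array.

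A part of the regulators and hormones of the granulosa cell was called at each dose. Of 24 transcription factors, 5 were called higher with cAMP at 10 µM and 1 lower, against 6 higher and 2 lower at 0 µM, and with the block 9 were higher at 10 µM and 7 at 0 µM. Nr5a1, the nuclear receptor SF-1 that drives steroidogenic genes, had 8.55, 8.62 and 8.63 with cAMP, against 6.87, 6.86 and 6.52 in basal cells at 10 µM (1.85 ± 0.23, against 2.28 ± 0.23 at 0 µM). A different Nr5a1 probe set gave 0.29 at 10 µM and 0.45 at 0 µM, called at neither. Its relative Nr5a2 rose by 2.30 at 0 µM, and at 10 µM its difference was 1.71 with an adjusted p of 0.054, or 2.4e-06 with the block. Cebpa rose by 1.97 ± 0.47 and Foxl2, which keeps granulosa identity, by 0.78 ± 0.12 at 10 µM. Runx1 fell by 1.11.

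Of 23 hormones and receptors, 6 were called higher with cAMP and 2 lower at each dose, and with the block 3 were lower at 10 µM and 5 at 0 µM. Inha, the subunit shared by inhibins, had 12.27, 11.95 and 12.36 with cAMP, against 9.54, 9.16 and 8.61 in basal cells at 10 µM (3.09 ± 0.35, against 2.42 ± 0.35 at 0 µM). The inhibin beta subunits Inhbb and Inhba rose by 2.66 ± 0.36 and 0.77 ± 0.12. The prolactin receptor Prlr rose by 2.69 ± 0.75. Agtr2, an angiotensin receptor, had 5.63, 5.69 and 5.46 with cAMP, against 9.60, 10.49 and 10.22 in basal cells at 10 µM, a fall of 4.51 on the log2 scale, while another of its probe sets gave −0.87 (adjusted p = 0.097). Lhcgr did not pass at either dose, with a difference of 1.48 ± 1.00 at 10 µM and 2.27 ± 1.00 at 0 µM, and without the doubted arrays the difference at 0 µM was 0.83.

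Other large rises at 10 µM had their counterpart at 0 µM. Gstm7, a glutathione transferase, rose by 3.93 ± 0.39 at 10 µM, against 3.67 ± 0.39 at 0 µM. Hao2, a peroxisomal oxidase, rose by 3.82 against 3.98, Crabp2, which carries retinoic acid to its receptor, by 3.60 against 4.54, and Mmd2 by 3.51 against 3.53. Map2k6, a kinase that activates p38, rose by 3.73 against 2.50. A probe set assigned to the Mir351 locus rose by 3.65 against 3.02, and arrays of this kind do not tell a mature microRNA from its host transcript. Among genes of the lists with at least 2-fold responses at both doses and the smallest changes between them, Sik1, a kinase that cAMP induces and that restrains CREB coactivators, gave 1.95 ± 0.29 at 10 µM and 2.17 ± 0.29 at 0 µM, and another of its probe sets gave 0.24 and 0.32, not called. Greb1, an estrogen-responsive gene, gave 2.00 and 1.75, Egfr, the receptor of EGF-like factors, gave 2.21 and 2.46, and Ddit4, an inhibitor of mTOR signalling, gave 3.01 and 2.57 (the second not called, adjusted p = 0.064). Another probe set of Egfr and another of Greb1 gave −0.09 and −0.02 at 10 µM.

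Genes of the contractile cytoskeleton fell with cAMP at both doses. Of 23 actin and contractile genes, 17 were called lower with cAMP at 10 µM and none higher, against 20 lower and none higher at 0 µM, and with the block 22 and 23 were lower. The median over the list was −1.28 at 10 µM and −1.61 at 0 µM. No member was higher with cAMP at an unadjusted p under 0.05 at either dose. Acta2, smooth muscle actin, had 4.89, 5.19 and 5.65 with cAMP, against 9.51, 9.61 and 10.41 in basal cells at 10 µM (−4.60 ± 0.55, against −4.76 ± 0.55 at 0 µM). Tagln, an actin-binding protein, had 6.61, 7.43 and 8.81 with cAMP, against 12.14, 11.93 and 13.10 in basal cells at 10 µM (−4.77 ± 0.74, against −4.29 ± 0.74). The groups were far apart in both genes, at both doses. Among members with the smallest change between doses, Myh9, non-muscle myosin, gave −1.62 at 10 µM and −1.61 at 0 µM, Pdlim7 gave −1.82 and −1.81, and Vcl, the focal adhesion protein vinculin, gave −1.09 and −1.01. Another probe set of Pdlim7 gave −0.73 at 10 µM (limma adjusted p = 0.0231) and −0.23 at 0 µM (not called). Flna, which crosslinks actin, gave −1.28 and −1.31, Actn4 gave −1.90 and −2.01, and Lmod1 gave −1.02 and −1.06. Tpm1 differed by −1.64 and Ajuba by −1.06 at 10 µM without passing (adjusted p = 0.056 and 0.48), and both passed with the block. Other Tpm1 probe sets were called lower at 10 µM in the shared fit, at −2.7, −1.76, −1.44, −1.11 and −0.55. A further one gave −2.35 without passing (limma adjusted p = 0.0789).

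The list shares Acta2, Cnn1 and Lmod1 with the smooth muscle markers, of which 3 of 6 were lower with cAMP at each dose in the shared fit. With the block 3 were lower at 10 µM and 5 at 0 µM. The summed intensity of the 6 markers was 280 to 303 with cAMP, against 1155 to 1658 in basal cells at 10 µM. At 0 µM it was 268 to 364 with cAMP, against 1705 to 2656 in basal cells. Their part in the result was not tested. Pdlim3, a muscle LIM protein, fell by 4.14 at 10 µM. Of 10 CCN genes and YAP targets, 6 were called lower at each dose in the shared fit and 9 at each with the block, against 7 at 10 µM and 2 at 0 µM in the fit of only the groups compared. Ccn4 was called higher at 10 µM (0.39, adjusted p = 0.0474), at a level below each array's median. Ccn2, the matricellular connective tissue growth factor, had 11.37, 11.38 and 11.54 with cAMP, against 13.23, 13.31 and 13.43 in basal cells at 10 µM. Its response was −1.89 ± 0.16 at 10 µM and −1.04 ± 0.16 at 0 µM, and the change was not called (−0.85, 95% interval −1.32 to −0.37, adjusted p = 0.35). Ankrd1 gave −3.39 at 10 µM and −2.76 at 0 µM, and Ccn1 gave −1.47 and −1.68.

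Further falls at 10 µM were in receptors, matrix enzymes and secretion. S1pr1, a sphingosine phosphate receptor, fell by 4.35 at 10 µM and by 4.05 at 0 µM, while another of its probe sets gave −0.01 and 0.03. Cpe, which trims peptide hormones, had 9.47, 10.08 and 9.60 with cAMP, against 13.48, 13.65 and 13.54 in basal cells at 10 µM (−3.84 ± 0.45, against −4.14 ± 0.45 at 0 µM). Cemip, which breaks down hyaluronan, gave −4.03, the metalloprotease Adamts12 −3.90, the proteoglycan Aspn −3.89 and the homeobox factor Meox2 −3.72, all called lower at 0 µM too.

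Of the genes of amino acid supply and stress, 9 of 30 were called lower with cAMP at 0 µM and none at 10 µM. Many of them answer the factor ATF4, which is made when amino acids run short or when the endoplasmic reticulum is loaded with unfolded protein. At 10 µM 3 were called higher by limma, 4 were lower at an unadjusted p under 0.05 and 3 were lower with the block, while at 0 µM none was called higher (1 at an unadjusted p under 0.05) and 14 were lower with the block. In the fit of only the groups compared, 2 were lower at 10 µM and 4 at 0 µM. The median difference was −0.02 at 10 µM and −0.62 at 0 µM. The change was called for none of the 30 in the shared fit, where 9 were higher and none lower at an unadjusted p under 0.05, for 3 with the block, for 4 without the doubted arrays, and for 11 with both settings, in every case toward a higher value at 10 µM. With cAMP, 19 of the 30 were higher at 10 µM than at 0 µM (1.2% of all probe sets), and in basal cells 5 were (0.416% of all).

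Asns, which makes asparagine, had 9.81, 9.49 and 9.52 with cAMP, against 9.70, 10.00 and 9.96 in basal cells at 10 µM. Its 0 µM values were 7.32, 7.94 and 6.13 with cAMP, against 9.18, 8.85 and 8.80 in basal cells. The cAMP and basal arrays overlapped at 10 µM and lay apart at 0 µM, and the change was 1.53 ± 0.43 (adjusted p = 0.38, and 0.028 without the doubted arrays). Slc1a4, a carrier of alanine and serine, gave −0.42 ± 0.21 at 10 µM and −1.76 ± 0.21 at 0 µM, a change of 1.34 ± 0.29 (adjusted p = 0.071, and 0.021 with the block). Nupr1, a stress-induced nuclear protein, gave −0.98 ± 0.37 at 10 µM and −2.58 ± 0.37 at 0 µM, a change of 1.60 ± 0.52 (adjusted p = 0.71, and 0.013 with the block). Psat1, of serine synthesis, gave −0.02 against −1.04, and Chac1, which splits glutathione, gave 0.08 against −1.06. Without the number 3 cAMP array at 0 µM, the 0 µM values of this pair were −0.69 (adjusted p = 0.0742) and −0.67 (adjusted p = 0.215). Gpt2, an alanine aminotransferase, was higher with cAMP at 10 µM (0.82 ± 0.15) and not called at 0 µM (−0.16 ± 0.15), with a change that passed with the block (adjusted p = 0.0081). Slc7a3, a carrier of basic amino acids, gave −1.05 ± 0.36 at 10 µM (adjusted p = 0.091, and 0.028 with the block) and −1.89 ± 0.36 at 0 µM.

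The 250 bases before the start site of 3 of these genes hold the core of the amino acid response element, the site that ATF4 binds. They are shown because these genes were lower with cAMP at 0 µM and not called in the shared fit at 10 µM, with the core (TGATGNAA, or its reverse complement, which is how it reads here) in capitals. Sequences are RefSeq's, of build GRCr8, written in the direction of the gene, 5′ to 3′. Those of Slc1a4, Nupr1 and Chac1 are chr14:98761563-98761812 (minus strand), chr1:190645902-190646151 (minus strand) and chr3:126795881-126796130 (plus strand).
Slc1a4: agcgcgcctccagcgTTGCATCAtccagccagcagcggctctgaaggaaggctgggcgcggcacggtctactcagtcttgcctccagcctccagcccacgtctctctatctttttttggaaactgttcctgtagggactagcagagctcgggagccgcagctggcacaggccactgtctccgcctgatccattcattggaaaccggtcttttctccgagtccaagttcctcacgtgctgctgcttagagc
Nupr1: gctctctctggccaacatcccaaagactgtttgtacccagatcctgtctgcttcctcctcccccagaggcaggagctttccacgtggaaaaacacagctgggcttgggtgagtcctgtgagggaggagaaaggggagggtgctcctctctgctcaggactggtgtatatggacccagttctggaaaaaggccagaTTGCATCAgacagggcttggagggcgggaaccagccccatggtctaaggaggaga
Chac1: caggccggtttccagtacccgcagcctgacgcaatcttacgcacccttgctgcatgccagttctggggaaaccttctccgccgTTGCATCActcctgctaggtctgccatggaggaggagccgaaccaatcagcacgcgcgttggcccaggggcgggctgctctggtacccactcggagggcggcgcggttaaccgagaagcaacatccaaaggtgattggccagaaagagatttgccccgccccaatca
The core begins at −235 in Slc1a4, −55 in Nupr1 and −167 in Chac1, counted from the start site. Both strands were searched. Of the 27 genes of the list with a promoter in the table, 6 hold the core in any of their promoters (Chac1, Herpud1, Nupr1, Pck2, Slc1a4 and Trib3). Of 33469 single promoters of the same length, 3.4% hold it. These figures are not a like comparison, since a gene may have several promoters. The list was also written with many genes known to answer ATF4, so the count is no finding of these data. Trib3 and Pck2 gave 0.12 and −0.36 at 10 µM, against −0.88 and −0.96 at 0 µM, and Herpud1 gave 0.75, against −0.14. A match of letters describes the sequence and does not show binding.

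Of 37 matrix genes, 10 were called lower with cAMP at 10 µM and 1 higher, against 15 lower and 1 higher at 0 µM, and the median was −0.50 at 10 µM and −0.92 at 0 µM. With the block 17 were lower at 10 µM and 19 at 0 µM, with 2 higher at each dose, and in the fit of only the groups compared 11 and 10 were lower. The change was called by limma for none of the 37 in the shared fit (2 higher and none lower at an unadjusted p under 0.05) and for 2 with the block. Fn1, fibronectin, had 6.87, 7.53 and 8.61 with cAMP, against 10.10, 10.51 and 11.35 in basal cells at 10 µM (−2.98 ± 0.46, against −3.31 ± 0.46 at 0 µM). Spp1, osteopontin, gave −1.90 ± 0.54 at 10 µM and −3.57 ± 0.54 at 0 µM, a change of 1.67 ± 0.76 that passed with the block (adjusted p = 0.0044) and not in the shared fit. Bgn, a small proteoglycan, gave −0.96 at 10 µM and −2.25 at 0 µM, with a change of 1.29 (adjusted p = 0.016 with the block). Col12a1 gave −0.99 ± 0.30 at 10 µM and −2.53 ± 0.30 at 0 µM, and the change passed only with the block and without the doubted arrays (adjusted p = 0.02). Col1a2 differed by −1.49 at 10 µM and −1.40 at 0 µM, passing at neither dose (adjusted p = 0.053 and 0.07).

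Kcnd2 and Scg2 rose with cAMP at 0 µM and were not called at 10 µM. Kcnd2, a voltage-gated potassium channel, had 4.75, 5.02 and 4.67 with cAMP, against 4.56, 5.20 and 4.57 in basal cells at 10 µM. Without HPTE it had 8.01, 8.45 and 6.55 with cAMP, against 4.96, 4.91 and 4.89 in basal cells. No cAMP array at 10 µM reached the level of those at 0 µM, and the response was 0.03 ± 0.37 at 10 µM and 2.75 ± 0.37 at 0 µM (change −2.72 ± 0.53, adjusted p = 0.022). Another probe set of Kcnd2 gave −0.05 at 10 µM and 0.56 at 0 µM, with a change that was not called (−0.61, adjusted p = 0.711). Scg2, the secretory granule protein secretogranin II, had 4.08, 4.54 and 4.46 with cAMP, against 4.50, 4.16 and 4.61 in basal cells at 10 µM. Without HPTE it had 6.43, 7.32 and 8.19 with cAMP, against 4.72, 4.51 and 4.43 in basal cells. The change was −2.83 ± 0.69, with an adjusted p of 0.15 in the shared fit and 0.012 with the block. Of 14 neuropeptide and secretory genes, 1 was higher with cAMP and 2 lower at 10 µM, against 2 higher and 2 lower at 0 µM. With the block 2 were higher and 3 lower at 10 µM, against 3 and 3 at 0 µM. The other riser at 0 µM, Snap25, gave 1.88 at 10 µM and 1.36 at 0 µM.

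**Figure D3:**
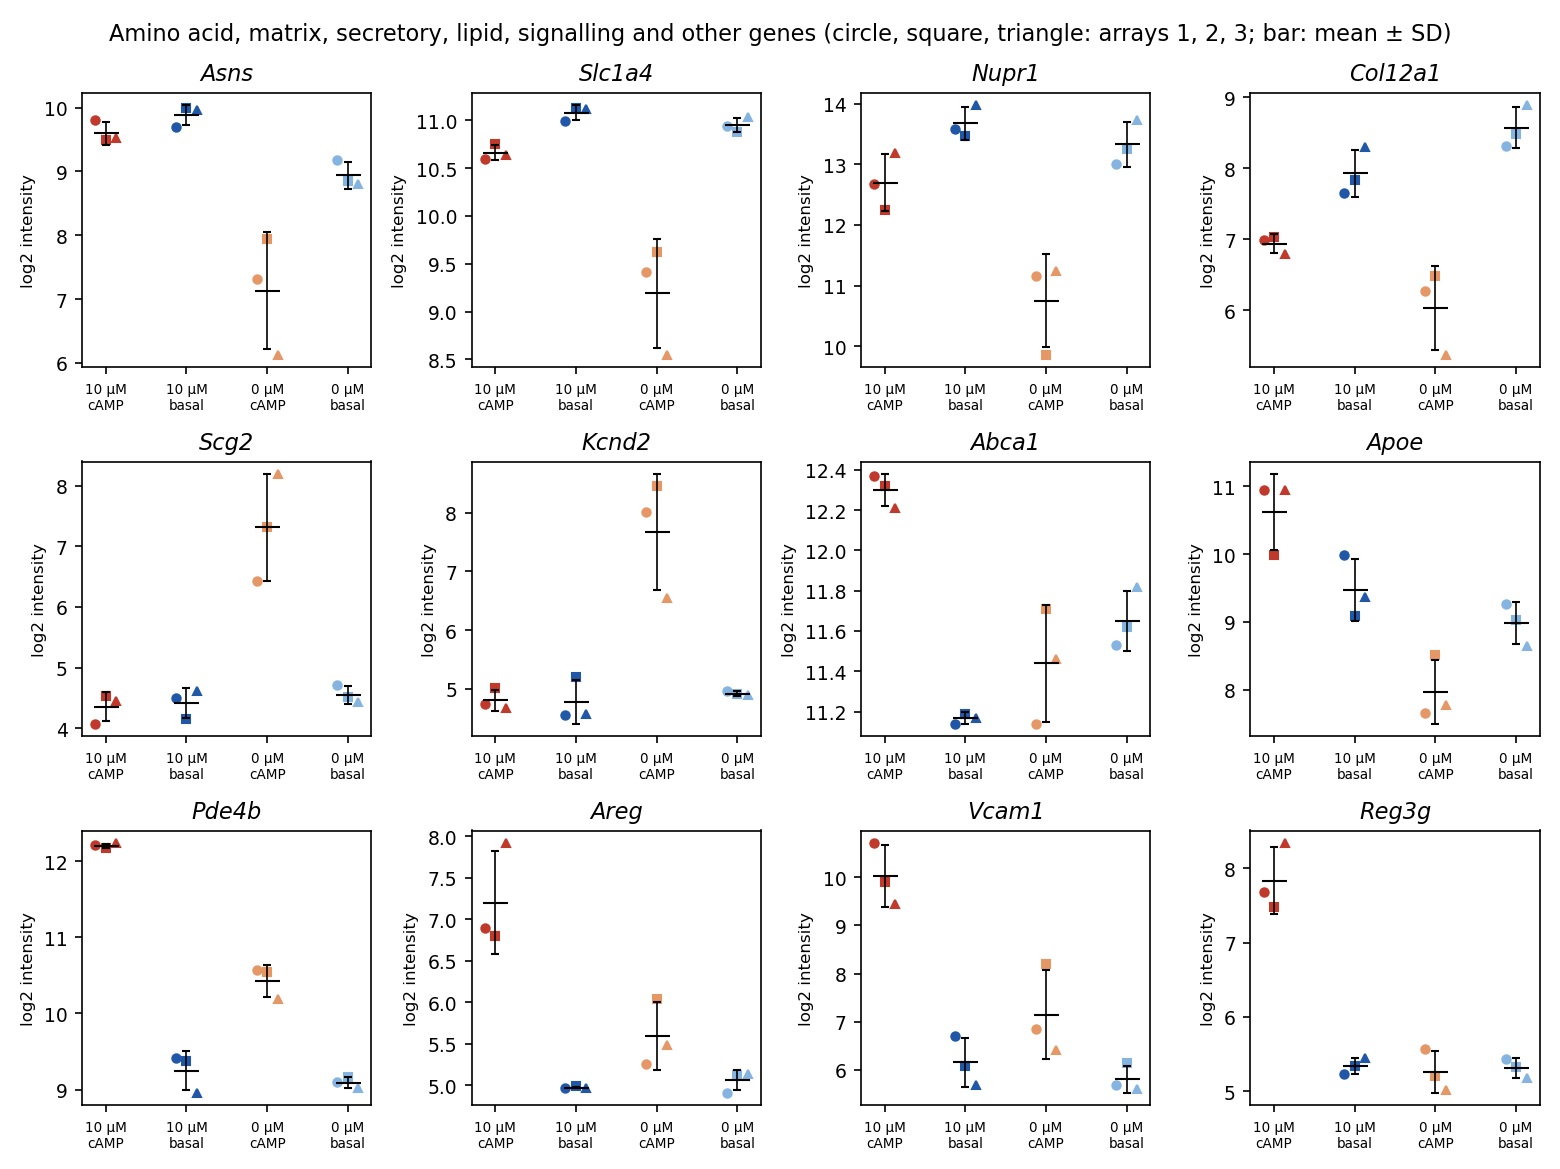
Each panel gives the log2 intensity of a gene on the 3 arrays of each of 4 groups, with points for arrays and bars for the mean ± SD. In Asns, Slc1a4, Nupr1, Col12a1, Scg2 and Kcnd2 the cAMP and basal arrays lie closer together at 10 µM than at 0 µM, and in the last 6 panels the cAMP arrays at 10 µM have the highest mean of the 4 groups.

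Pde4b and Pde4d, of cAMP breakdown, rose with cAMP at 10 µM. Of 40 genes of cAMP and protein kinase A signalling, 4 were called higher with cAMP and 4 lower at 10 µM, against 4 higher and 5 lower at 0 µM. The change was called for none of the 40 by limma in the shared fit (2 higher and 2 lower at an unadjusted p under 0.05) and for Pde4b alone with the block. Of the 12 phosphodiesterases among them, Pde4b and Pde4d were called higher and Pde7a lower at 10 µM, against Pde1a and Pde4b higher and Pde7a lower at 0 µM. Pde4b, a phosphodiesterase that breaks down cAMP, had 12.21, 12.17 and 12.24 with cAMP, against 9.42, 9.37 and 8.96 in basal cells at 10 µM. At 0 µM it had 10.57, 10.54 and 10.19 with cAMP, against 9.10, 9.16 and 9.02 in basal cells. All cAMP arrays at 10 µM lay above all those at 0 µM, with responses of 2.95 ± 0.28 and 1.34 ± 0.28 (change 1.61 ± 0.39, adjusted p = 0.16, and 0.0018 with the block). Pde4d, of the same family, gave 2.61 ± 0.45 at 10 µM and 0.82 ± 0.45 at 0 µM, and the change passed only with the block and without the doubted arrays (adjusted p = 0.014). Akap12, a scaffold that holds protein kinase A at the membrane, had 7.19, 7.74 and 7.15 with cAMP, against 12.39, 12.26 and 12.15 in basal cells at 10 µM. It was the largest fall among the named genes (−4.91 ± 0.46, against −3.33 ± 0.46 at 0 µM, or −4.09 without the doubted arrays), and the change was not called (adjusted p = 1). The other Akap12 probe set gave −1.15 at 10 µM (adjusted p = 0.0089) and −0.30 at 0 µM (not called). Prkar2b, a regulatory subunit of the kinase, gave 0.98 and 0.88, and Dusp1, a MAP kinase phosphatase, gave −1.47 ± 0.31 and −1.48 ± 0.31, and another of its probe sets −0.31 and −0.22, not called.

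Among 19 genes of the ovulatory response, 4 were called higher and 1 lower at 10 µM, against 2 higher and 3 lower at 0 µM, and with the block 6 were higher at 10 µM and 3 at 0 µM. Areg, an EGF-like factor that acts on Egfr, had 6.89, 6.80 and 7.92 with cAMP, against 4.96, 4.99 and 4.97 in basal cells at 10 µM (2.23 ± 0.35). In the absence of HPTE it had 5.25, 6.04 and 5.48 with cAMP, against 4.91, 5.12 and 5.14 in basal cells (0.53 ± 0.35, not called). The change was 1.70 ± 0.49 (adjusted p = 0.45, and 0.0073 with the block and without the doubted arrays). Ereg, of the same family, gave 1.42 ± 0.38 at 10 µM and 0.60 ± 0.38 at 0 µM. Plat, the tissue plasminogen activator, was lower with cAMP at 0 µM (−0.77) and not called at 10 µM (0.56), and its change passed with the block (1.33 ± 0.29, adjusted p = 0.0096).

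Areg, Scg2 and Dusp1 carry the same full cAMP response element before their start sites, although their responses to cAMP differed. They are shown for that contrast: Areg was higher with cAMP at 10 µM and not called at 0 µM, Scg2 was higher at 0 µM and not called at 10 µM, and Dusp1 was lower at both. The element, TGACGTCA, which reads the same on both strands, is in capitals, in RefSeq sequence of build GRCr8 in the direction of the gene, 5′ to 3′. The stretches are chr14:17265642-17265891 (minus strand), chr9:88256867-88257116 (minus strand) and chr10:17184603-17184852 (plus strand).
Areg: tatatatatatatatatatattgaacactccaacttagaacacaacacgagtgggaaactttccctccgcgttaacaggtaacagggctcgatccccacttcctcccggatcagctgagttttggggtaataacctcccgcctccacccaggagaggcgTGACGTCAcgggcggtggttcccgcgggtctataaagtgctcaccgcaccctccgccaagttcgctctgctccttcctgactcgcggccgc
Scg2: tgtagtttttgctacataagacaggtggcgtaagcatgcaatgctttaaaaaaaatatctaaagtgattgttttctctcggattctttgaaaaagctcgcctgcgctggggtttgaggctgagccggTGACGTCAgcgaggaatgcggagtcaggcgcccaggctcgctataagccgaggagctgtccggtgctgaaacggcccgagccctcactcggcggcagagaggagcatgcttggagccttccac
Dusp1: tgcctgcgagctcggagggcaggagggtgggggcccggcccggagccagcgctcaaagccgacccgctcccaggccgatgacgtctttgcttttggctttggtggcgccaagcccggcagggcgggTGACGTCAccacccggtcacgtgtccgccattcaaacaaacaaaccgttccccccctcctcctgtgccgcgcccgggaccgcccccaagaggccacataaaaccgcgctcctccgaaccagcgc
The element begins at −91 in Areg, −123 in Scg2 and −124 in Dusp1. It is held by 1.59% of 33469 promoters of 250 bases. Crem, Il6, Vgf, Cenpe and Mcm5 of the lists hold it too and are not shown. No promoter of the steroid enzymes (9 genes in the table) or of the actin and contractile list (18 genes in the table) holds it. With so low a share, lists this short cannot show a lack of it, and several other lists hold none either.

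Abca1, Apoe and Scarb1, which move cholesterol across the cell membrane or carry it in lipoproteins, had their highest levels with cAMP at 10 µM. Of 14, 3 were higher with cAMP and 3 lower at 10 µM, against 2 higher and 3 lower at 0 µM, and with the block 5 were higher at 10 µM and 4 at 0 µM. Scarb1, the receptor that takes cholesterol from HDL, had 11.23, 11.26 and 11.86 with cAMP, against 7.59, 7.36 and 8.02 in basal cells at 10 µM (3.79 ± 0.51, against 2.24 ± 0.51 at 0 µM). The change of Scarb1 was called neither in the shared fit nor with the block. A different Scarb1 probe set gave 2.25 at 10 µM and 1.22 at 0 µM, called at neither. Abca1, which exports cholesterol, had 12.37, 12.32 and 12.21 with cAMP, against 11.14, 11.19 and 11.17 in basal cells at 10 µM. In the absence of HPTE it had 11.14, 11.71 and 11.46 with cAMP, against 11.53, 11.62 and 11.82 in basal cells. Its arrays were apart at 10 µM and overlapped at 0 µM, and the change was 1.35 ± 0.21 (adjusted p = 0.0022). Apoe, which carries cholesterol out of cells, differed by 1.15 ± 0.36 at 10 µM and −1.0 ± 0.36 at 0 µM, and its change passed with the block (2.16 ± 0.50, adjusted p = 0.0088). Vldlr and Lrp8, receptors of lipoproteins, gave −1.69 and 1.23 at 10 µM and −2.21 and 1.73 at 0 µM. Of 18 genes of cholesterol synthesis, 1 was called at each dose, Dhcr7, which gave 1.51 at 10 µM and 0.92 at 0 µM. With the block 2 were higher and 1 lower at 0 µM.

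Among the genes with the largest called changes toward a higher value at 10 µM were Reg3g, Vcam1, Akr1c15 and Slc6a4. Reg3g, a secreted lectin that kills bacteria in the gut, had 7.68, 7.48 and 8.34 with cAMP, against 5.23, 5.34 and 5.44 in basal cells at 10 µM. Without HPTE it had 5.57, 5.21 and 5.01 with cAMP, against 5.43, 5.32 and 5.18 in basal cells. Only the cAMP arrays at 10 µM stood out, with a response of 2.49 ± 0.20 at 10 µM and −0.05 ± 0.20 at 0 µM (change 2.54 ± 0.29, adjusted p = 4.8e-05). Its relative Reg3b gave 2.19 ± 0.19 at 10 µM and 0.37 ± 0.19 at 0 µM (change 1.82 ± 0.26). Vcam1, an adhesion protein that binds leukocytes, had 10.71, 9.91 and 9.45 with cAMP, against 6.70, 6.08 and 5.68 in basal cells at 10 µM. At 0 µM it had 6.85, 8.20 and 6.41 with cAMP, against 5.69, 6.14 and 5.61 in basal cells, and the responses were 3.87 ± 0.36 and 1.34 ± 0.36 (change 2.53 ± 0.51, adjusted p = 0.029). Of the 9 leukocyte markers, none was called at 10 µM in the shared fit (1 lower with the block, and 1 lower at an unadjusted p under 0.05). The summed intensity of the 9 was 586 to 1040 with cAMP, against 1048 to 2618 in basal cells.

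Akr1c15, an aldo-keto reductase, had 9.68, 9.64 and 10.35 with cAMP, against 7.95, 8.05 and 8.43 in basal cells at 10 µM, a response of 1.75 ± 0.19, against −0.23 ± 0.19 at 0 µM. HPTE at 10 µM raised it in basal cells too, by 1.52. Slc6a4, the serotonin transporter, gave 1.75 ± 0.25 at 10 µM and −0.12 ± 0.25 at 0 µM, and Dusp15, a phosphatase, gave 2.63 ± 0.22 and 0.88 ± 0.22. Cldn11, a tight junction protein, rose by 3.89 ± 0.54 at 10 µM and by 0.73 ± 0.54 at 0 µM (not called), and its change passed with the block (3.15, adjusted p = 5.5e-06) and not in the shared fit (0.15). Another probe set of Cldn11 gave −0.01 at 10 µM. Hamp, the iron hormone hepcidin, rose by 3.10 ± 0.49 at 10 µM, against 1.22 ± 0.49 at 0 µM, and its change was not called (adjusted p = 0.92).

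In 3 genes whose response was called more negative at 10 µM, the basal level was raised by HPTE. Esm1, a secreted proteoglycan known from endothelium, had 4.41, 4.38 and 4.51 with cAMP, against 7.84, 8.06 and 8.23 in basal cells at 10 µM. The values at 0 µM were 3.97, 4.74 and 4.33 with cAMP, against 6.0, 6.31 and 6.54 in basal cells. The cAMP arrays overlapped between doses while the basal arrays at 10 µM lay above those at 0 µM (1.76, adjusted p = 4.1e-05), and the change was −1.67 ± 0.32. Serpinb1a, a protease inhibitor, gave −2.51 ± 0.21 at 10 µM and −0.72 ± 0.21 at 0 µM, with a basal level raised by 1.92. The other Serpinb1a probe set gave −0.43 and 0.11, with no called change. Lrrc39, a leucine-rich repeat protein, gave −2.18 ± 0.20 and −0.53 ± 0.20, with a basal level raised by 1.49, and its other probe set gave a change of −0.93 that was not called. Of 6 endothelial markers none was called at either dose, and none passed at an unadjusted p under 0.05.

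A last group was lower with cAMP at 0 µM and higher with cAMP at 10 µM. In the shared fit these were 7 probe sets, 4 of them with a name: Csf1, Olfml2a, Cavin2 and Abi3bp. With the block they were 31, Apoe, Plat and Cd302 among them, and with the block and without the doubted arrays 40. Olfml2a, a secreted matrix protein, had 9.38, 9.53 and 9.64 with cAMP, against 8.38, 8.82 and 8.74 in basal cells at 10 µM. At 0 µM it had 7.71, 6.79 and 7.28 with cAMP, against 8.03, 8.62 and 8.46 in basal cells (change 1.98 ± 0.34). The order of cAMP and basal arrays was thus the opposite at each dose, with no overlap, while another probe set of Olfml2a gave 0.55 at 10 µM and −0.22 at 0 µM, called at neither. Cavin2, of the coat of caveolae, gave 1.06 ± 0.17 at 10 µM and −0.57 ± 0.17 at 0 µM, with a basal level lowered by HPTE (−1.58). Its call at 0 µM was lost without any single array of the 6, at −0.50 and an adjusted p of 0.183 without the number 2 basal array. Csf1, the growth factor of macrophages, gave 0.85 at 10 µM and −0.71 at 0 µM with 1 of its probe sets, while the other 3 gave 0.05, 0.02 and 0.10 at 10 µM. Abi3bp gave 0.87 and −0.63. Csf1 and Abi3bp were named after their values were seen. Cd302, a lectin receptor, gave 0.77 ± 0.24 at 10 µM (limma adjusted p = 0.051) and −1.29 ± 0.24 at 0 µM. Lhfpl3, a membrane protein with a called change, is not of this group. It gave 0.10 ± 0.22 at 10 µM and −1.61 ± 0.22 at 0 µM, and so did not turn to a rise.

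At the doses between, some of these genes moved step by step. Kcnd2 had responses of 2.75, 1.75, 0.95 and 0.03 at 0, 1, 5 and 10 µM, and Scg2 had 2.76, 1.65, 1.47 and −0.07. Asns had −1.81, −1.38, −1.29 and −0.28, and Slc1a4 had −1.76, −1.32, −1.19 and −0.42, so that most of their change lay between 5 and 10 µM. Vcam1 had 1.34, 0.71, 1.63 and 3.87, Pde4b had 1.34, 1.05, 1.72 and 2.95, and Reg3g had −0.05, −0.21, 0.72 and 2.49. Esm1 had −1.94, −2.33, −3.45 and −3.61, with its larger step between 1 and 5 µM. Cyp11a1 had 4.15, 3.98, 4.49 and 4.79, and Acta2 had −4.76, −5.25, −4.98 and −4.60.

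**Figure D4:**
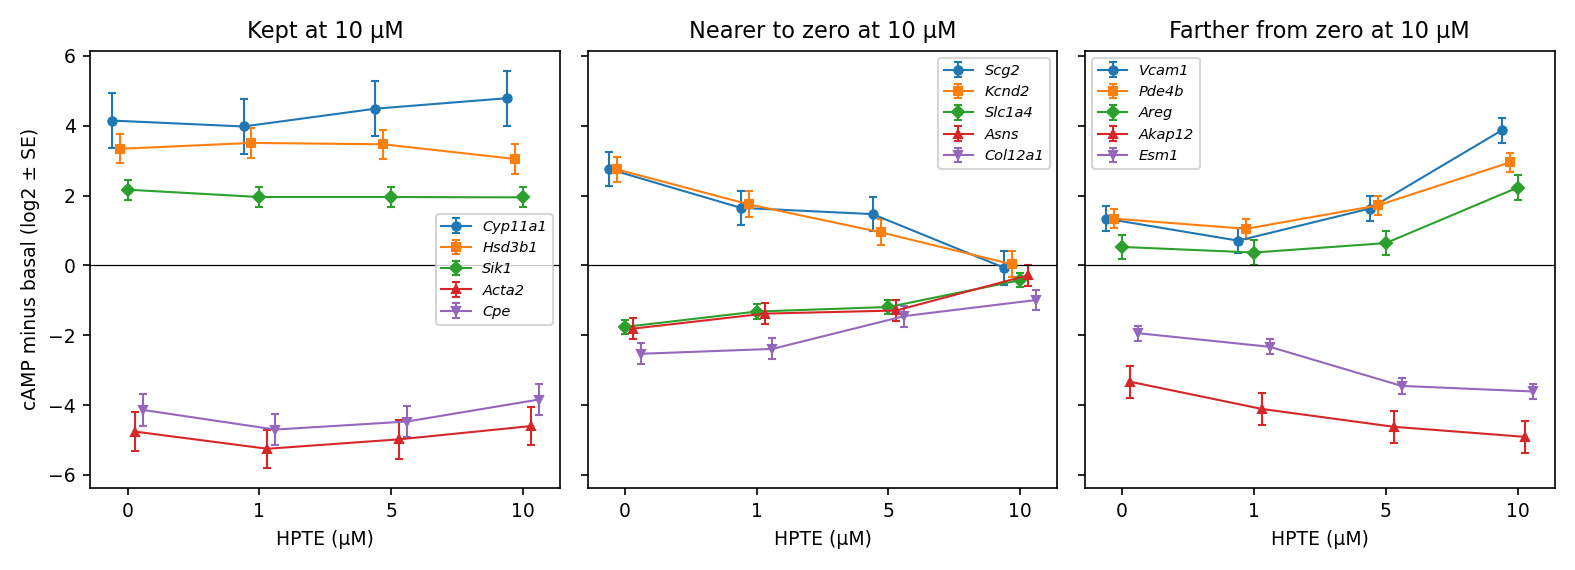
The log2 difference between cAMP and basal arrays (± SE) is plotted against the dose of HPTE in µM, in steps that are not to scale, for genes of 3 kinds. In the middle panel the responses approach 0 at 10 µM (Kcnd2 2.75 at 0 µM and 0.03 at 10 µM), in the right panel they move away from it (Vcam1 1.34 and 3.87), and in the left panel they stay near their level at 0 µM.

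Of the remaining lists, those of proliferation, retinoids, xenobiotic response and estrogen response were called as follows. Over all probe sets 2.73% were higher and 3.45% lower with cAMP at 10 µM, against 2.69% and 4.49% at 0 µM. Lower calls made up 2.94% of the proliferation list at each dose in the shared fit, below those shares. Of 34 proliferation genes, 2 were higher and 1 lower with cAMP at 10 µM, against none higher and 1 lower at 0 µM (1 higher and 10 lower at an unadjusted p under 0.05), and with the block 3 were lower at 10 µM and 8 at 0 µM. Of 29 Nrf2, AhR and xenobiotic genes, 4 were higher and none lower at 10 µM (10 and none at an unadjusted p under 0.05), against 4 higher and 2 lower at 0 µM. With the block 11 were higher at 10 µM and 7 at 0 µM. In the shared fit the 4 at 10 µM were the glutathione transferases Gstm7, Gstm1, Gsta1 and Gsta4, whose probes may share targets. Of 18 retinoid genes, 2 were higher and none lower at 10 µM, against 1 of each at 0 µM, or 2 of each at 0 µM with the block. Cyp26b1, which breaks down retinoic acid, was lower with cAMP at 0 µM (−1.73) and not called at 10 µM (−0.17), where its basal level was already lower than at 0 µM (−2.54). Of 15 estrogen-responsive genes, 3 were higher and 1 lower at 10 µM, against 2 and 2 at 0 µM, and with the block 3 were lower at 10 µM and 5 at 0 µM. Igf1, the insulin-like growth factor, gave −1.20 ± 0.25 at 10 µM and −2.07 ± 0.25 at 0 µM. Of 6 surface epithelium markers, Upk1b was higher with cAMP at 10 µM (2.07) and Krt8 and Krt18 lower (−0.86 and −1.07), and none was called at 0 µM (1 lower at an unadjusted p under 0.05).

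**Figure D5:**
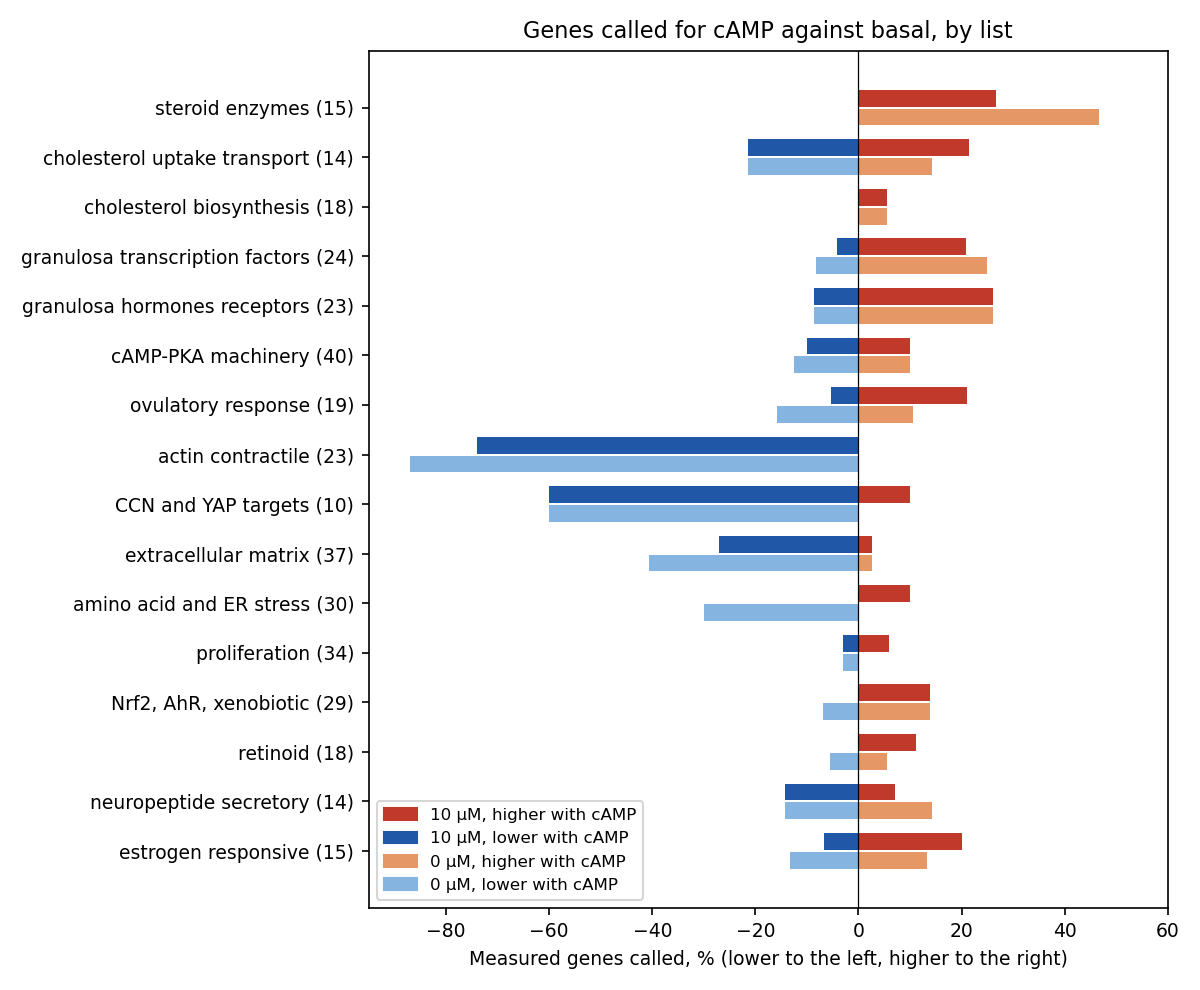
Bars give the share of measured genes of each list (their number in brackets) called higher with cAMP, to the right, or lower, to the left, at 10 µM HPTE (upper bar) and at 0 µM (lower bar), in percent. The actin and contractile list reaches 73.9% lower at 10 µM and 87% at 0 µM, and the amino acid and ER stress list has no bar to the left at 10 µM, against 30% at 0 µM.

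Several calls were lost when an array was left out, some of them whichever array it was. Without the number 3 cAMP array at 10 µM, Ereg gave 0.91 (adjusted p = 0.222) and Dusp15 a change of 1.55 (adjusted p = 0.0614), and without the number 2 cAMP array at 10 µM, Flna gave −1.06 (adjusted p = 0.0621). Calls at 10 µM were lost in 6 of 6 such fits for Prlr (2.51, adjusted p = 0.106 without the number 3 cAMP array) and Col12a1 (−0.81, adjusted p = 0.191 without the number 3 basal array). They were lost in 5 of 6 for Fdx1 and Ddit4, in 4 of 6 for Spp1, Herpud1 and Krt18, in 3 of 6 for Krt8 and Olfml2a, and in 2 of 6 for Cebpa and Gsta1. Among calls at 0 µM, those of Fdx1, Tpm1 and Pck2 were lost in 5 of 6 fits, those of Plat, Runx1, Serpinb1a and Snap25 in 4, those of Agtr2 and Vcam1 in 3 and that of Cyp19a1 in 2, which without the number 2 cAMP array gave 2.34 (adjusted p = 0.144). Star without the number 1 cAMP array at 0 µM gave 1.95 there (adjusted p = 0.0537). The called change was lost in 9 of 12 fits for Vcam1 (up to an adjusted p of 0.146), in 8 of 12 for Kcnd2, in 4 of 12 for Esm1 and Lhfpl3 and in 3 of 12 for Slc6a4. It held in all 12 for Reg3g, Reg3b, Akr1c15, Cd302, Olfml2a, Cavin2, Abca1, Serpinb1a and Lrrc39. Without the doubted arrays the change of Esm1 had an adjusted p of 0.052 and that of Kcnd2 of 0.049.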

How the data were processed

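Per the labels, 40 ng of RNA per culture was amplified and labelled with the NuGEN Ovation system and put on Affymetrix rat genome arrays, 1 array per sample. The deposited values are linear intensities of each probe set on each array, made by RMA per the submitters' processing notes. The scale was read from the values. Arrays give no count depth, and their number limits the precision. Of 31099 probe sets, 57 controls were left out of the tests. Platform annotation gave 20826 probe sets a single gene symbol, 436 several and 9780 none, and 20758 symbols were updated through RefSeq. For a gene with several probe sets, the brightest on average over the 36 arrays stands for it.

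The log2 of each intensity was fitted in limma 3.58.1 (R 4.3.3) with 12 group means over 36 arrays and moderated tests, two-sided, with Benjamini-Hochberg adjustment over 31042 probe sets and a threshold of 0.05. The change of the response was the contrast of both differences. The fits were tested on simulated data. Arrays of the same number in cAMP and basal groups deviated together (r over 0.1 in all 6 pairs used here), so a fit with the replicate block is given where it matters. Other alternatives were quantile normalization, no dim probe sets, only the groups compared, numbers 1 and 2 alone, a trended variance, an offset of 16, each array left out and, chosen after seeing the data, leaving out the number 2 arrays labelled FSH and cAMP at 0 µM.

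The arrays compared, the gene lists and the tests were chosen with earlier results of these data known. Named genes were the 12 with the largest called rises and the 12 with the largest called falls at 10 µM whose arrays did not overlap, the up to 10 with the largest called change of the response in each direction, members of the lists, and up to 10 list members in each direction with at least 2-fold responses at both doses and the smallest change. One of the largest falls is not reported here. Promoter sequence is RefSeq's, build GRCr8. FSH arrays entered the fit for its estimate of spread and are otherwise not analysed here.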

Additional observations from a re-analysis of the deposited data

Results flagged for a closer look

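For 17 genes named in the text the cAMP response at 10 µM differed from that at 0 µM by the limma test of the difference itself. The difference, 10 µM minus 0 µM on the log2 scale, was 2.54 for Reg3g, 2.53 for Vcam1, 2.06 for Cd302, 1.98 for Olfml2a, 1.98 for Akr1c15, 1.87 for Slc6a4, 1.82 for Reg3b, 1.75 for Dusp15, 1.71 for Lhfpl3, 1.63 for Cavin2, 1.57 for Csf1, 1.50 for Abi3bp and 1.35 for Abca1. It was −2.72 for Kcnd2, −1.79 for Serpinb1a, −1.67 for Esm1 and −1.65 for Lrrc39. Groups of 3 arrays are too small for a check of single arrays against their group.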

How the results depend on the processing

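With the replicate block 3977 probe sets were called at 10 µM, 4709 at 0 µM and 177 for the change of the response. With the block and without the number 2 arrays labelled FSH and cAMP at 0 µM (chosen after seeing the data) these were 4487, 5363 and 527. Then 1182 of the 0 µM responders were called the same way at 10 µM, against 783 in the shared fit. Each fit chose its own responders: 344 of 398 raised and 838 of 1062 lowered were kept, against 251 of 359 and 532 of 766 in the shared fit. The change was called for 70 without those arrays alone, for 26 without dim probe sets, for 10 in a fit of only the groups compared and for 17 with numbers 1 and 2 alone. At 0 µM 885 were called in the fit of only the groups compared. The median response at 10 µM of probe sets lowered at 1 µM was −1.19 in the shared fit, −1.17 with the block, with and without the doubted arrays, −1.15 after quantile normalization, −1.23 with only the groups compared and −1.23 with numbers 1 and 2 alone. The cause of these moves was not tested. With each array left out in turn, 1415 to 1661 probe sets were called at 10 µM, 1660 to 2181 at 0 µM and 24 to 50 for the change. The responders kept numbered 660 to 798, and the medians lay between 1.03 and 1.08 for probe sets raised and between −1.24 and −1.16 for those lowered. Another probe set of the gene turned the sign for Cldn11 (−0.01), Egfr (−0.09) and Greb1 (−0.02) at 10 µM and for S1pr1 (0.03) and Serpinb1a (0.11) at 0 µM, and 24 calls were lost with another probe set, among them those of Nr5a1, Sik1, Dusp1, Agtr2, Scarb1 and Olfml2a and the changes of Kcnd2, Lrrc39 and Serpinb1a. For Tpm1 at 10 µM, 5 of the other probe sets were called where the brightest was not. Of the values of named genes, 155 kept their direction and call with the block and 10 passed only there. A dim probe set limits the size of a fall, since its level cannot go below background.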

Other observations

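Genes not described above also moved at 10 µM. Penk, the precursor of enkephalins, fell by 2.92 at 10 µM and by 4.05 at 0 µM. Lpl, which frees fatty acids from lipoproteins, gave −1.35 at 10 µM and −1.68 at 0 µM, and the lysosomal lipase Lipa gave −0.95 and −1.15. The basement membrane collagens Col4a1 and Col4a2 gave −1.53 and −1.53 at 10 µM, against −1.15 and −1.90 at 0 µM, and Tnc, tenascin C, gave −1.99, against −1.53. The gelatinase Mmp2 was higher with cAMP at 10 µM (1.17) and not called at 0 µM (0.50), a call that was lost in 5 of 6 fits without an array. Dhrs3, which reduces retinal, was higher at 10 µM (1.35). In the blocked fit alone, Apoc3, an apolipoprotein, gave 0.96 at 10 µM and −1.03 at 0 µM, called in opposite directions. Apoc3 was named after its values were seen.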
